A study of Mus musculus with 6 samples.

Results

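The genes described here encode structural and maintenance proteins of the photoreceptor outer segment: Rom1, Prph2, Prom1, Cdhr1, Rp1, Tulp1, Abca4 and Aipl1. They were chosen by symbol: every probe set that the array's annotation maps to 1 of these 8 genes was taken. This gave all 8 genes, of 12393 genes named on the array, and 10 of the table's 22690 probe sets, with Rp1 and Aipl1 each covered by 2. The study compared retinal RNA of mice at postnatal day 7 on 6 Affymetrix expression arrays. The labels give C57BL/6 as the strain of both groups, 3 arrays being wildtype and 3 knockout, and the series' design writes the knockout genotype as hemizygous (-/Y). Neither group is labelled with a treatment, and the sex of the wildtype mice is not given in the sources used here. The labels name retina extraction and total RNA and no selection of cells, and leave unsaid how many animals stand behind each array. At issue is how the knockout retina differs in its transcripts from the wildtype retina at this age.

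The outer segment is a modified cilium filled with a stack of membrane discs that hold proteins of phototransduction. Discs form as evaginations at its base, flatten, and are held in shape by a rim of tetraspanins, while an axoneme of microtubules runs along one side. In the mouse retina, outer segments elongate from about the second postnatal week, so the retinae measured here were taken at the beginning of that process. Loss of any of these genes causes or is linked to photoreceptor degeneration in humans or mice.

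Sequence upstream of the annotated start was taken from RefSeq (GRCm38.p6), where 7 of the 8 genes had a window, with Rp1 named only. Windows of Rom1, Prph2 and Aipl1 are shown because Rom1 and Aipl1 had the smallest unadjusted p values of the group and because Prph2 encodes the partner of Rom1. Each holds the 250 bases before the start, printed 5′ to 3′ on the strand of the gene. Capitals mark GATTA on either strand, the core that homeodomain factors of the OTX family, among them the photoreceptor regulator CRX, recognise. The windows lie at chr19:8929357-8929606 (minus strand), chr17:46910228-46910477 (plus strand) and chr11:72037510-72037759 (minus strand).
Rom1: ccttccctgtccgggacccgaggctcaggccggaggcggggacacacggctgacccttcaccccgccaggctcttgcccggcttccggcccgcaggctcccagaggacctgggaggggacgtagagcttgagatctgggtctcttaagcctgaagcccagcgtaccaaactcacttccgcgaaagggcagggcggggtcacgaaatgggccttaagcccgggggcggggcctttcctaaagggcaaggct
Prph2: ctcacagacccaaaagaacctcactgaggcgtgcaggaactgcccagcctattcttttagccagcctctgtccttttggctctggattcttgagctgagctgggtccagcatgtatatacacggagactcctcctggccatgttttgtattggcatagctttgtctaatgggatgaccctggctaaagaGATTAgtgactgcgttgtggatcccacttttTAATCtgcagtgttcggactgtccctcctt
Aipl1: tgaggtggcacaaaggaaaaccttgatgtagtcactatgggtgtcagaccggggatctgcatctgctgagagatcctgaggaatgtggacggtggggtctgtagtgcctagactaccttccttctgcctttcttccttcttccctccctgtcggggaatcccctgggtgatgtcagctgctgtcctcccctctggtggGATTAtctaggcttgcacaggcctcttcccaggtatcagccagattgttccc

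The Prph2 window held 2 matches, 61 to 57 and 30 to 26 bases before the start, and the Aipl1 window held 1, 52 to 48 bases before it. The Rom1 window held none. Abca4 had 2 matches and Prom1 had 1, in the second of its 2 windows, so that 4 of the 7 genes had a match. The core was found in 19.8% of 32851 windows of the same length. That share counts windows, while the count above is of genes, and the 7 genes had 8 windows. The longer form GGATTA, searched on both strands and containing the core, was found in the windows of Abca4 and Aipl1 and in 6.25% of all windows. TGCTGA, searched on both strands and part of the element bound by the rod factor NRL, was found in the Aipl1 window, in no window of the other 6 genes, and in 16.1% of all windows. The motifs were chosen, and the windows trimmed to the upstream bases, after the sequences had been seen. A match shows the letters only and was not tested as a binding site.

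The deposited values are linear MAS5 signals, with 1 value per probe set and array. They were scaled here to a common trimmed mean, because that mean ranged from 171 to 312 before rescaling. The photoreceptor genes Sag, Nrl and Crx gave signals of 2548 to 7886 on all arrays. Knockout array 1 stood apart, with correlations of 0.914 to 0.936 with the others, against 0.958 to 0.979 among the remaining 5. The ratio of the 3′ to the 5′ Actb control, a measure of RNA integrity, was 1.44 to 1.64 in wildtype and 1.69 to 2.17 in knockout arrays, with the highest value in knockout array 1 (exact two-sided permutation p = 0.1, the smallest that 3 against 3 allows). The part of RNA integrity in the results was not tested.

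No outer segment probe set passed the test. Of the 10 probe sets, 9 lay above the filter on dim signals (a mean above 62.4) and were tested in limma together with all others, and 0 of the 9 had a Benjamini-Hochberg adjusted p under 0.05 (adjusted p = 0.999 for each in limma). Over all 13575 probe sets tested, 0.0147% passed. An unadjusted p under 0.05 was reached by 2 of the 9, against 3.82% of all probe sets. Negative log2 fold changes were found for 8 of the 9, against 49.9% of all, and their median was -0.19, where that of all probe sets was 0.00031. The scaling moves members and background together. Quantile scaling left 7 of the 9 negative against 46% of everything tested, median scaling 6 against 33.5%, and no rescaling 3 against 12.4%. The members' median was -0.14, -0.098 and 0.12 in these settings, and the median over everything tested was 0.019, 0.088 and 0.29. Without knockout array 1, or without wildtype array 1, 6 of the 9 were negative. The 9 values come from the same 6 arrays and are not independent of each other. In whole retina, fewer photoreceptors and less RNA per photoreceptor cannot be told apart.

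**Figure D1:**
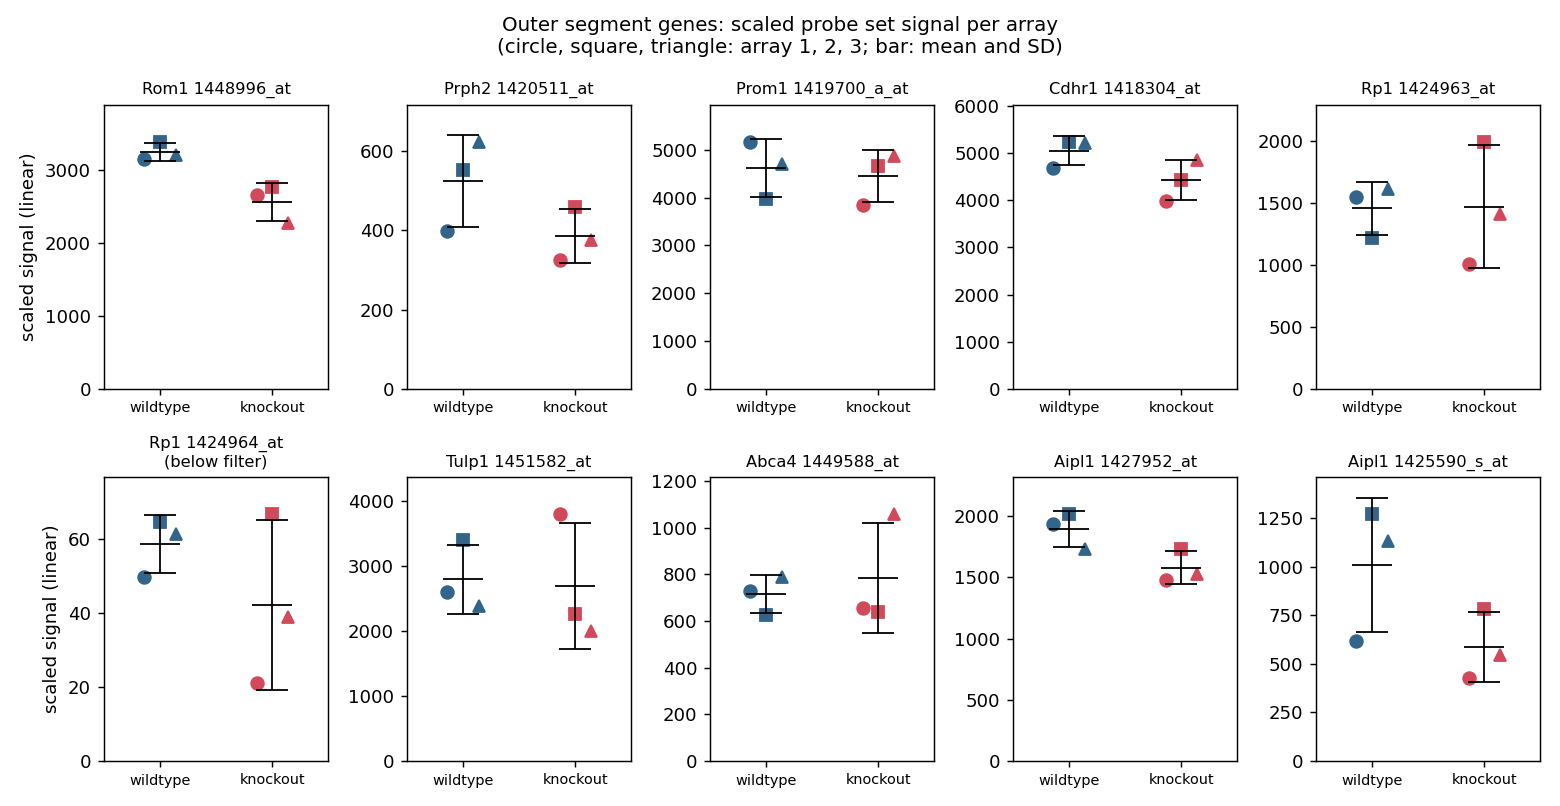
Scaled linear signal (y axis, from 0) of the 10 member probe sets on 3 wildtype (blue) and 3 knockout (red) arrays; circles, squares and triangles are arrays 1, 2 and 3, and black bars give the mean and SD. The Rom1 panel shows all knockout arrays below all wildtype arrays, and the groups overlap in the other 9 panels.

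The disc rim is formed by a pair of related tetraspanins, peripherin-2 (Prph2) and ROM1 (Rom1), which join into complexes that bend the disc edge. Rom1 (probe set 1448996_at) had scaled signals of 3148, 3382 and 3209 on wildtype arrays 1 to 3, against 2654, 2764 and 2271 on knockout arrays 1 to 3. All 3 knockout values lay below all 3 wildtype values. The means were 3246 ± 121 and 2563 ± 259 (SD, n = 3), and the log2 fold change was -0.34 ± 0.12 (SE; 95% interval -0.60 to -0.085; limma adjusted p = 0.999). It was the only tested member probe set whose groups did not overlap. Over all probe sets tested, 5.05% had non-overlapping groups with the knockout lower and 4.05% with the knockout higher, and 1 of 9 is too few to set apart from that background. None of the 9 was both at least 1.5-fold apart and free of overlap, which held for 1.94% of all. Without knockout array 1 the log2 fold change of Rom1 was -0.37.

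Prph2 (1420511_at) had signals of 397, 554 and 624 on wildtype arrays 1 to 3, against 325, 460 and 375 on knockout arrays 1 to 3. Wildtype array 1 lay inside the knockout range, while the other wildtype arrays lay above it. The means were 525 ± 116 and 387 ± 68.1 (SD, n = 3), and the log2 fold change was -0.41 ± 0.21 (SE; 95% interval -0.88 to 0.053). Without knockout array 1 it was -0.30, and with wildtype array 1 left out it was -0.59. Across the 6 arrays the log2 signals of both rim genes had a Pearson r of 0.69, a description of arrays that share their scaling.

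Abca4 encodes the flippase of the disc rim that moves retinal bound to phospholipid across the disc membrane. Its probe set (1449588_at) had 728, 627 and 788 on wildtype arrays 1 to 3, against 654, 640 and 1058 on knockout arrays 1 to 3. Knockout array 3 was the highest of all 6, and the other knockout arrays lay within the wildtype range. In the reported scaling Abca4 was the only member gene with a positive log2 fold change, 0.098 ± 0.21 (SE; 95% interval -0.37 to 0.57). The sign turned without knockout array 3, to -0.13.

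At the base of the outer segment, where new discs open to the outside, sit prominin-1 (Prom1), a pentaspan protein of membrane protrusions, and the photoreceptor cadherin CDHR1 (Cdhr1). Cdhr1 (1418304_at) had signals of 4695, 5240 and 5223 on wildtype arrays 1 to 3, against 3995, 4440 and 4850 on knockout arrays 1 to 3. Only knockout array 3 reached into the wildtype range, above wildtype array 1. The means were 5053 ± 310 and 4428 ± 428 (SD, n = 3), and the log2 fold change was -0.19 ± 0.11 (SE; 95% interval -0.43 to 0.047). It was -0.12 without knockout array 1.

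Prom1 (1419700_a_at) had 5166, 3965 and 4712 on wildtype arrays 1 to 3, against 3846, 4655 and 4867 on knockout arrays 1 to 3. The groups overlapped over most of their range. The log2 fold change was -0.049 ± 0.13 (SE; 95% interval -0.35 to 0.25). It was positive without knockout array 1 (0.053) and without wildtype array 1 (0.036). Prom1 and Cdhr1 shared little of their variation between arrays, with a Pearson r of 0.28.

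RP1 (Rp1) is a doublecortin family protein that binds the microtubules of the axoneme and helps align the discs along it. The brighter of its probe sets (1424963_at) had signals of 1544, 1214 and 1612 on wildtype arrays 1 to 3, against 1010, 1991 and 1408 on knockout arrays 1 to 3. The knockout arrays spanned the whole wildtype range, with knockout array 1 the lowest and knockout array 2 the highest of the 6. The log2 fold change was -0.030 ± 0.23 (SE; 95% interval -0.55 to 0.49), and it was 0.21 without knockout array 1. The dimmer probe set (1424964_at) had 49.8, 64.8 and 61.5 on wildtype arrays 1 to 3, against 21.0, 66.8 and 38.8 on knockout arrays 1 to 3 and lay below the filter. In a fit with no filter its log2 fold change was -0.41 ± 0.29 (SE; 95% interval -1.08 to 0.26), and without knockout array 1 it was -0.14. Both Rp1 probe sets had their lowest value in knockout array 1 and their highest in knockout array 2.

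TULP1 (Tulp1) is a tubby-like protein of the inner segment and connecting cilium that is needed for the delivery of proteins to the outer segment. Its probe set (1451582_at) had signals of 2592, 3398 and 2383 on wildtype arrays 1 to 3, against 3796, 2263 and 2003 on knockout arrays 1 to 3. Knockout array 1 was the highest of all 6, and knockout arrays 2 and 3 lay below every wildtype array. The log2 fold change was -0.095 ± 0.23 (SE; 95% interval -0.61 to 0.42). It was -0.37 without knockout array 1 and 0.087 without knockout array 3.

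AIPL1 (Aipl1) is a photoreceptor cochaperone that, with HSP90, is required to assemble the phosphodiesterase of the phototransduction cascade. The brighter of its probe sets (1427952_at) had signals of 1939, 2016 and 1728 on wildtype arrays 1 to 3, against 1478, 1734 and 1529 on knockout arrays 1 to 3. Knockout array 2 lay just above wildtype array 3, and the other knockout arrays lay below all wildtype arrays. The means were 1894 ± 149 and 1580.1 ± 136 (SD, n = 3), and the log2 fold change was -0.26 ± 0.13 (SE; 95% interval -0.55 to 0.028).

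The other Aipl1 probe set (1425590_s_at) had signals of 618, 1270 and 1133 on wildtype arrays 1 to 3, against 428, 781 and 543 on knockout arrays 1 to 3. Wildtype array 1 lay below knockout array 2, so that the groups overlapped. The means were 1007 ± 344 and 584 ± 180 (SD, n = 3), a 1.73-fold lower mean in knockout. Its log2 fold change of -0.75 ± 0.29 (SE; 95% interval -1.40 to -0.092; limma adjusted p = 0.999) was the furthest from 0 among the members. It ranged from -1.06 without wildtype array 1 to -0.55 without wildtype array 2 or without knockout array 1, and was -0.35 without both of these. Identifiers ending in _s_at mark probe sets that can hybridise with related transcripts, and the Aipl1 probe sets had a Pearson r of 0.71 over the 6 arrays.

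**Figure D2:**
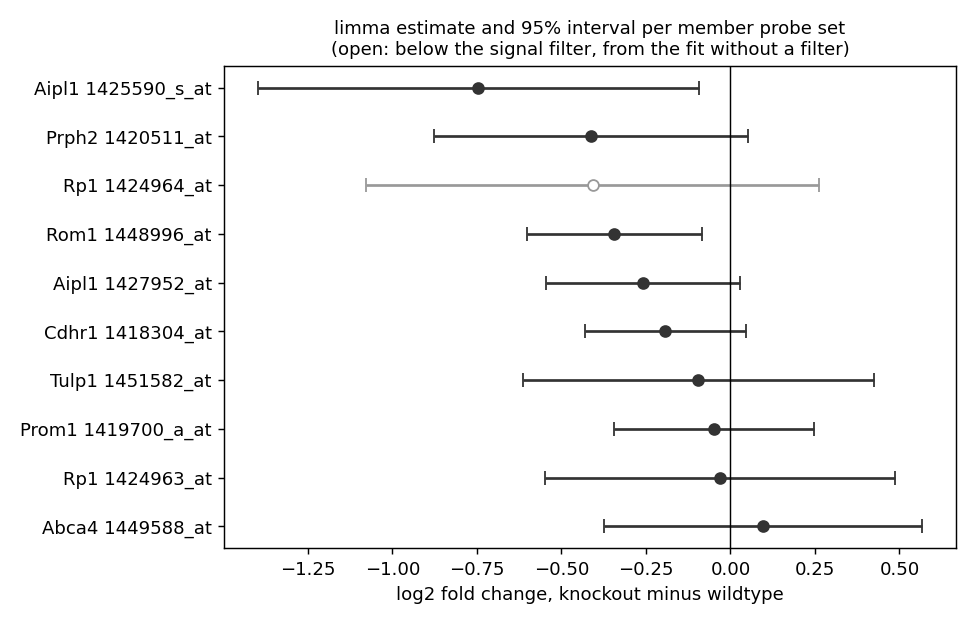
Log2 fold change, knockout minus wildtype (x axis), with its 95% interval from limma for each member probe set; the open symbol is the Rp1 probe set below the filter, from the fit without one. The intervals of Rom1 and of 1 Aipl1 probe set (-1.40 to -0.092) do not reach 0 before adjustment, and the others include it.

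The members differed in how they varied over the arrays. Over the brightest probe set of each gene, 19 of the 28 gene pairs had a positive and 9 a negative Pearson r over the 6 arrays. These correlations describe arrays that share their scaling. Prph2 and Cdhr1 had r = 0.81. Prph2 had r = 0.59 with the brighter Aipl1 probe set and 0.97 with the dimmer, _s_at one. Tulp1 ran opposite to Prom1 (r = -0.85) and to Rp1 (r = -0.78). The lowest value lay in knockout array 1 for 6 of the 9 tested member probe sets, where 28.2% of all tested probe sets had it there. Wildtype array 2, knockout array 3 and again knockout array 3 held the lowest values of Abca4, Rom1 and Tulp1.

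**Figure D3:**
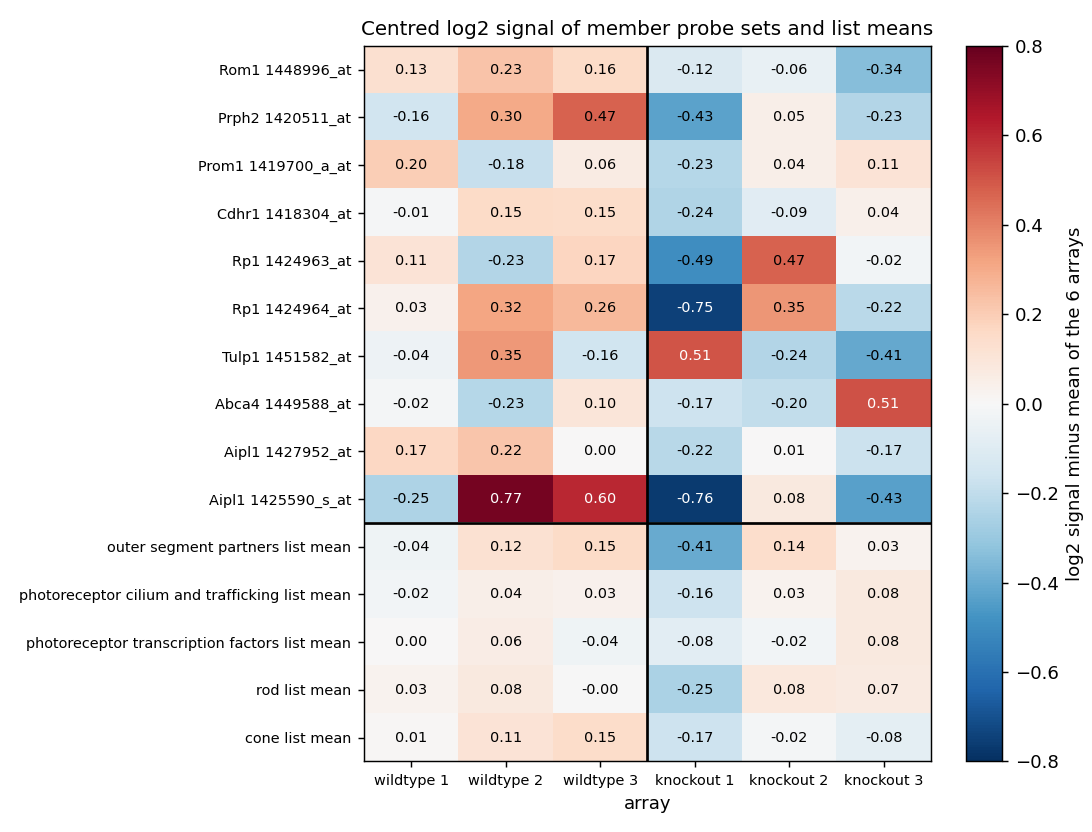
Log2 signal of each member probe set on each array, minus its mean over the 6 arrays (colour and printed value), above the means of 5 gene lists treated the same way. Knockout array 1 holds -0.76 for 1 Aipl1 probe set, 0.51 for Tulp1 and -0.25 for the rod list.

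Genes of related function were read from the same fit, with the brightest probe set for each gene. Of 14 measured outer segment partners (phototransduction, channel and disc lipid genes), 12 were tested, with 2 positive and 10 negative log2 fold changes, a median of -0.18, and 0 past the threshold. Sag, arrestin, had -0.18 and Pde6g, the inhibitory subunit of the rod phosphodiesterase, had -0.068. The list mean of centred log2 signals ran -0.035, 0.12 and 0.16 over wildtype arrays 1 to 3 and -0.41, 0.14 and 0.025 over knockout arrays 1 to 3, so that only knockout array 1 lay below the wildtype values. Pde6a and Pde6b, catalytic subunits that AIPL1 helps to assemble, had -0.46 ± 0.25 and 0.015 ± 0.13 (SE).

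Of 17 tested genes of the photoreceptor cilium and its transport, 7 had positive and 10 negative values (median -0.054; 0 passed). Unc119, which carries lipidated proteins to the cilium, had -0.084 and Arl3, its release factor, had 0.12. Of 11 tested paralogs of the members, 5 had positive and 6 negative values (median -0.00085; 0 passed), with the tetraspanin Cd81 at -0.051 and the cadherin Cdh2 at 0.21. Prom2 and Tulp3, paralogs of Prom1 and Tulp1, had -0.00085 and 0.15. Of 10 tested photoreceptor transcription factors, 6 had positive and 4 negative values (median 0.036; 0 passed), with Nrl at -0.15 and Neurod1 at -0.088, and Crx, the main activator of photoreceptor genes, at -0.094.

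Lists of markers give the cell types around these values. The summed signal of 10 of 10 measured and tested rod genes was 31790 to 35240 in wildtype and 29350 to 33100 in knockout arrays, and that of 9 of 9 cone genes was 6001 to 6298 and 5688 to 6384. The rod list mean was -0.25 in knockout array 1, below the other 5 arrays, which lay between -0.001 and 0.083. The cone list mean was 0.009, 0.11 and 0.15 over the wildtype arrays and -0.17, -0.018 and -0.081 over the knockout arrays. It was lower on all 3 knockout arrays (exact two-sided permutation p = 0.1). Opn1mw and Thrb, the dimmest of the 9 cone genes, had the lowest log2 fold changes, -0.85 and -0.44. Their means were 95.4 and 108 in wildtype, against 49.2 and 74.3 in knockout arrays. The remaining cone genes ran from -0.14 (Cngb3) to 0.088 (Opn1sw). Of all 9, 3 lay above 0 and 6 below it. Sums were 1222 to 3123 in wildtype and 2228 to 3420 in knockout arrays for pigment cell genes (6 of 9 above the filter, with Rpe65 below it), and 249.5 to 2212 and 370.2 to 1301 for lens genes (7 of 14 above it, with Mip and Bfsp1 below). For progenitor genes they were 3016 to 3266 and 2944 to 3840 (6 of 9 above it, with Mki67 below), and for microglia genes 1472 to 1694 and 1464 to 2358 (7 of 8). Within both of these lists the highest sum lay in knockout array 1. Skeletal muscle genes had 529 to 688.8 and 379.2 to 439 (4 of 11 above the filter; exact two-sided permutation p = 0.1 for the list mean, the smallest possible). For neurons and glia of the retina the sums were 6826 to 7220 and 7136 to 7307 for bipolar genes (9 of 9 above the filter), 5840 to 6383 and 5940 to 6262 for amacrine genes (9 of 9), and 7748 to 8806 and 7809 to 8663 for Müller glia genes (9 of 10). Ganglion cell genes (7 of 8) had sums of 4544 to 5113 and 5258 to 5603, with no overlap, while their list means overlapped (exact two-sided permutation p = 0.1 for the sum and 0.4 for the list mean). Horizontal cell genes (4 of 5) had 1514 to 1616 and 1687 to 2028, and their list mean was also higher on all knockout arrays (exact two-sided permutation p = 0.1 for both). All 4 tested genes had positive log2 fold changes. Septin4, the brightest and most of the sum, had means of 981 in wildtype and 1222 in knockout arrays. Calb1, the next, had 446 and 449 (log2 fold change 0.0054). Blood genes had 140.2 to 156.4 and 132.8 to 163.5 (1 of 6), and vessel genes 1926 to 2379 and 2093 to 2661 (7 of 8). The part of these cells in the members' values was not tested.

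For each member, the named probe set with the most similar pattern over the 6 arrays was taken, as a description of few points. These were Glis2 for Rom1 (Pearson r = 0.994), Cfap97 for Prph2 (0.989), Cpne3 for Prom1 (0.996) and Camk2d for Cdhr1 (0.995). For Rp1 it was Bdh1 (0.993), for Tulp1 Zfp428 (0.996), for Abca4 Prpf8 (0.994) and for Aipl1 Rbbp4 (0.999). Members were left out of the search over 12531 probe sets. Each named gene is the highest of that many values over only 6 arrays. Between 0.423% (for Rom1) and 1.88% (for Tulp1) of the probe sets searched had an r over 0.9 with the member.

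**Figure D4:**
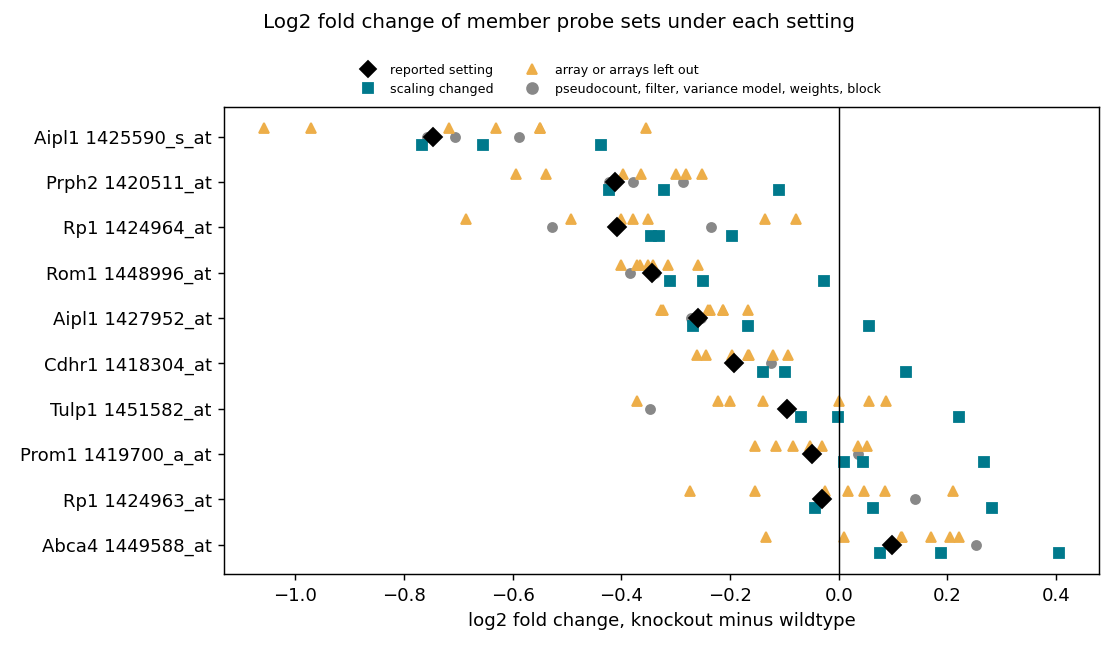
Log2 fold change, knockout minus wildtype (x axis), of each member probe set in the reported setting (diamonds), with other scalings (squares), with arrays left out (triangles) and with other filters, pseudocounts or models (circles). Rom1, Prph2, the Aipl1 _s_at probe set and the dimmer Rp1 probe set stay below 0 in every setting run, and the other 6 cross 0 in at least 1. Cdhr1 and the brighter Aipl1 probe set do so only without rescaling, where the median over everything tested lay at 0.29.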

How the data were processed

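Retinal RNA of 3 wildtype and 3 knockout mice or pools of mice was measured on arrays. The deposited intensity values are linear and were made by the authors with MAS5, per the submitters' processing notes; version, scaling target and detection calls are not given in the sources used here. Groups come from the sample titles. Here, the 64 control probe sets were left out, arrays were brought to 1 mean after trimming 2% at each end, and 19.1 (the 20th percentile) was added before log2, which understates changes of dim probe sets. Of 22626 probe sets, the 13575 with a mean above the 40th percentile (62.4) were fitted with limma 3.58.1 in R 4.3.3 (lmFit, eBayes with an intensity trend) and adjusted by Benjamini-Hochberg over all of them. The fit was also run on simulated arrays with independent errors and without rescaling. Those arrays held no difference shared by a whole array, so they do not cover such differences in these data. P-values measure the spread between these arrays, which may be technical, and their number limits the precision.

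Symbols come from the platform annotation, updated through Entrez identifiers: 20380 probe sets had 1 symbol, 691 several and 1555 none. All member probe sets are named. Of the lists of related function, the 2 genes with the highest mean signal are named, with Crx, Pde6a, Pde6b, Prom2 and Tulp3 added after their values were seen. Most marker lists are given by sums or list means, with few genes named. Opn1mw and Thrb are named there because of their values. Members and lists were chosen with earlier results of these data known. Probe sets were placed in no genome, and promoter windows come from RefSeq. The targeted gene is not reported here. Alternatives changed the scaling, the pseudocount, the filter and the variance model, weighted arrays, blocked on replicate number, or left arrays out.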

Additional observations from a re-analysis of the deposited data

How the results depend on the processing

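No member probe set and no gene of the other lists passed the threshold in any of the 18 alternatives run. In 5 of them (both filters, no intensity trend, the block and the ordinary statistic) the log2 fold changes of members cannot move. Among the 130 member values of the other 13, 111 kept their sign and 19 turned. Without rescaling, 3 of 9 tested members were negative against 12.4% of everything tested, whose median shifted to 0.29, and the values that turned with it were Prom1 0.267, Cdhr1 0.124, Rp1 0.282, Tulp1 0.221 and Aipl1 0.055 (1427952_at). Prom1 was 0.009 with quantile scaling, 0.045 with median scaling (medians over everything tested 0.019 and 0.088) and 0.035 with array weights. Rp1 was 0.063 with median scaling, 0.141 with array weights and 0.085 without wildtype array 2 and knockout array 1. With 1 array left out, Prom1 ranged from -0.154 to 0.053, Rp1 from -0.274 to 0.21, Tulp1 from -0.371 to 0.087 and Abca4 from -0.134 to 0.221.

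The count of all probe sets past the threshold (2) became 10 when arrays were not rescaled, 1 when no filter was used, 0 by the ordinary statistic, 4 without wildtype array 2 and knockout array 1, and 0 to 4 with 1 array left out. The count at least 1.5-fold apart without overlap (264) became 473 when arrays were not rescaled, 823 when no filter was used, 130 under the stricter filter and 240 to 904 with 1 array left out. Apart from the numbers of probe sets and arrays, the cause was not tested.

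With the replicate block, 2 probe sets and 0 members passed (lowest member adjusted p = 0.573, limma). Deviations from the group mean had r = 0.177, -0.029 and 0.084 between same-numbered arrays, and -0.289 to 0.263 between differently numbered ones. Within a group of 3 these deviations sum to 0, so the r values depend on each other and cannot decide on pairing. The numbers were not taken as pairs in the reported fit. With 3 arrays a group, the narrowest member interval, that of Cdhr1, ran from -0.43 to 0.047, which limits what could be detected.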
